A study of Mus musculus with 6 samples.

Results

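The PI3K, AKT and mTOR pathway was followed here through the transcripts of 42 genes, taken from the 54532 genes of the deposited tables by matching their symbols to the gene annotation. The genes fall into 5 classes by role: 10 PI3K subunits and adaptors, 7 genes for AKT, its activating kinase PDK1 and the phosphatases that oppose them, 7 subunits of the mTOR complexes, 7 genes of nutrient and growth factor sensing, and 11 genes acting downstream of AKT and mTOR.

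The cells were primary bone marrow mesenchymal stem cells (mBMSCs) of wild type mice, adherent marrow cells that can form osteoblasts. All cultures were kept for 7 days in osteogenic medium, to which, per the labels, dexamethasone (100 nM), β-glycerophosphate (10 mM) and ascorbic acid (50 μg/mL) had been added; the study's methods give a lower dexamethasone concentration, and which was used for these libraries cannot be told from the sources. The Ni group received 0.1 μM nickel ions and the control group did not, with 3 cultures of each described as independent biological replicates. The age and sex of the mice are not given in the sources used here. RNA-seq read counts per gene were compared between the groups, because the study places nickel upstream of AKT and mTOR phosphorylation through integrin-linked kinase. Phosphorylation is not visible in RNA, so the values below describe transcript supply only.

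Class I PI3K enzymes sit at the plasma membrane below growth factor and chemokine receptors and produce the lipid PIP3, which recruits PDK1 and AKT. Active AKT restrains the TSC1-TSC2 complex, the FOXO transcription factors and GSK3, and thereby releases the small GTPase RHEB to activate mTOR complex 1. This complex also needs amino acids, signalled through the Rag GTPases at the lysosome, and it drives protein synthesis through S6 kinase and the 4E-BP proteins while holding back autophagy through ULK1. In bone, insulin and IGF signals use this route in osteoblasts, and the δ and γ catalytic subunits of PI3K are best known from leukocytes.

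Totals ranged from 16101033 to 18642504 counts per library, and all 42 genes passed the filter on low counts, as did 14624 genes in all. Control replicate 3 stood apart from its group. Over the log2 CPM (counts scaled to the TMM-adjusted library total) of all tested genes, its mean Pearson's r was 0.978 with the other controls and 0.987 with the Ni libraries, whereas each other library was closer to its own group. Results that rest on this library are therefore given with and without it. The library was picked from these same values, for its likeness to the Ni libraries. Leaving it out tends by itself to separate the groups, so p-values from that fit are a description only. Stromal markers, which define the labelled cell type, summed to between 11100 and 18900 CPM in controls and between 23500 and 28800 CPM with Ni. The 10 osteoblast markers summed to between 10400 and 20500 CPM in controls and between 22800 and 30300 CPM with Ni. Col1a1 is on both lists, so these sums overlap. The 18 macrophage markers were all detected as well and summed to between 29700 and 34400 CPM in controls and between 29400 and 30000 CPM with Ni, so the cultures held abundant macrophage RNA beside stromal RNA. Osteoclast markers summed to between 637 and 1340 CPM in controls and between 661 and 708 CPM with Ni, and lymphocyte markers to between 13.8 and 42.4 and between 15.2 and 19 CPM, with Cd3e, Cd3d and Ms4a1 at 0 counts in every library. Neutrophil markers summed to at most 3.24 CPM, with S100a9, Ngp and Ltf at 0 counts.

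No gene of the pathway passed the test between Ni and control. Of the 42 genes, 21 had a higher and 21 a lower fitted level with Ni, the median log2 fold change was 0.00 against -0.01 for all tested genes, and the extremes were -0.47 (Pik3r5) and 0.44 (Irs1). At an adjusted p under 0.05 (edgeR quasi-likelihood test, Benjamini-Hochberg over all tested genes) 0 of 42 genes were called, as were 0 of 14624 genes overall (0.0%). DESeq2, which called 257 of 25876 genes, and limma on FPKM also called 0 of the 42. The p-values measure the spread among these 3 cultures per group, and in bulk RNA fewer cells of a type cannot be told apart from less RNA per cell.

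At an unadjusted p under 0.05, 3 of the 42 genes (7.14%) differed, against 13.4% of all tested genes. Higher with Ni were Pik3r2 and Irs1, where the background share is 7.59%, and lower was Pik3r5, where it is 5.83%. The ranges of the 3 Ni and 3 control libraries did not overlap for 6 of the 42 genes (14.3%), against 14.7% of all genes. These were Pik3r2, Mlst8, Foxo3 and Ulk1 on the higher side (background 7.97%) and Mapkap1 and Rragd on the lower side (6.71%). Both shares were thus at or below those of the whole transcriptome. The 95% interval of the fold change stayed within 1.5-fold either way for 36 of the 42 genes (85.7%), against 54.3% of all tested genes. The lowest mean level was 1.13 FPKM among the 42 and 0.0125 FPKM among all tested genes. The part of expression level in these shares was not tested. The 6 genes whose intervals reached beyond 1.5-fold were Pik3cd, Pik3r5, Irs1, Irs2, Sesn1 and Foxo1.

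**Figure D1:**
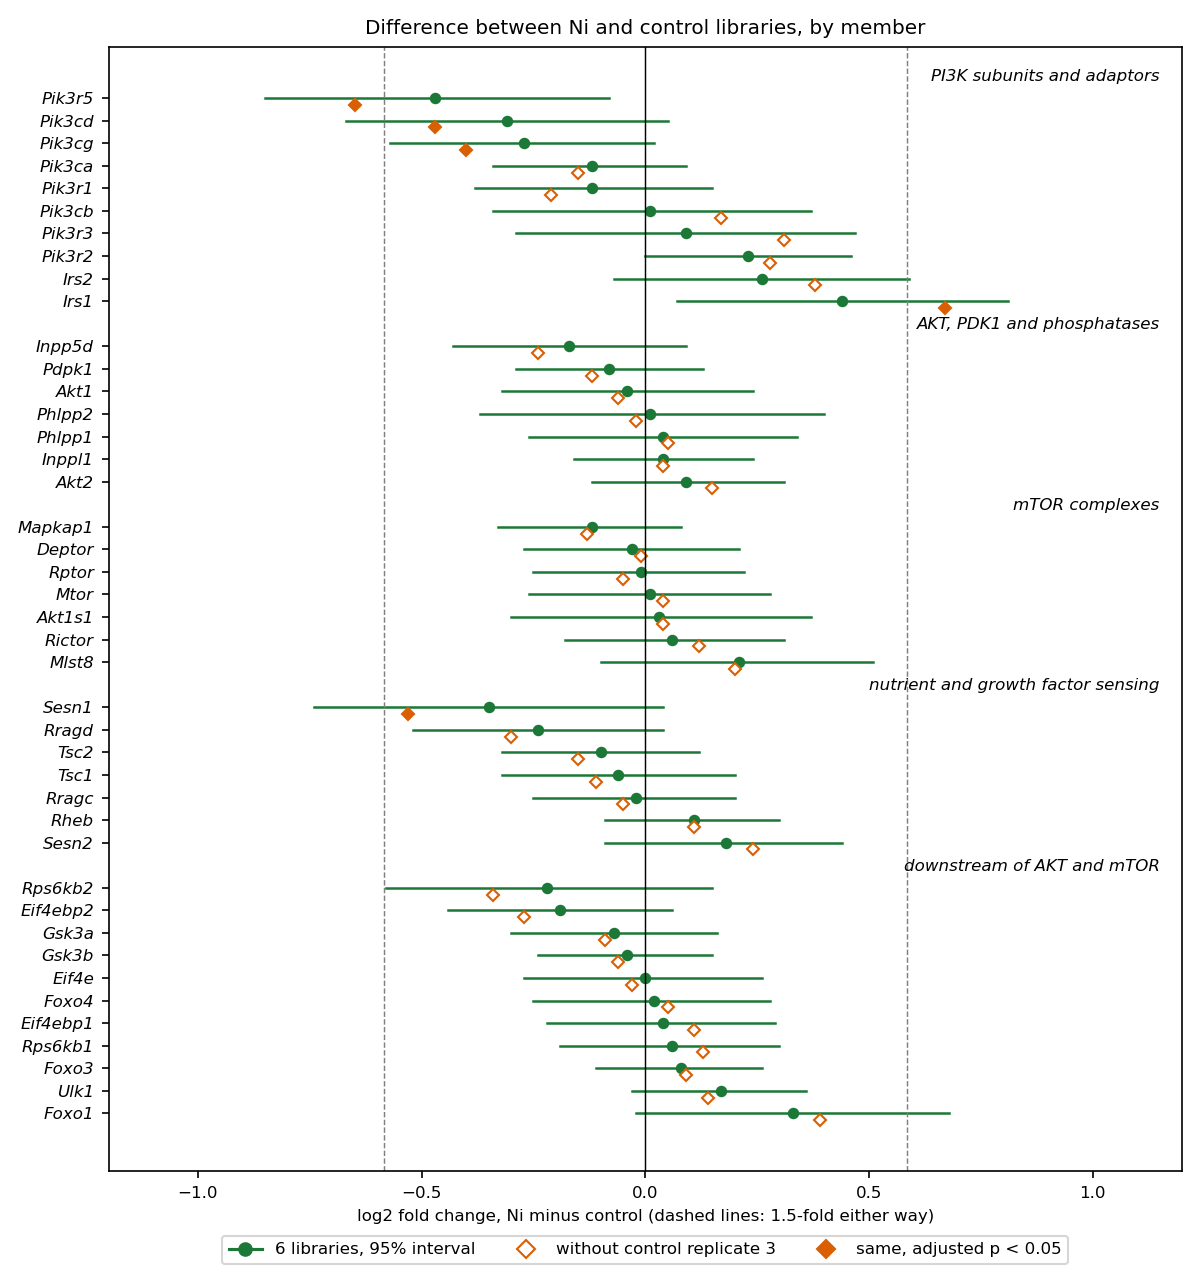
Log2 fold change of each of the 42 genes (Ni minus control, horizontal axis), by class; green points and bars are the edgeR estimates and 95% intervals over 6 libraries, and diamonds are the estimates without control replicate 3, filled where the adjusted p was under 0.05. Most intervals include 0 and lie between the dashed lines at 1.5-fold, and the 5 filled diamonds are Pik3r5, Pik3cd, Pik3cg, Sesn1 and Irs1.

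Without control replicate 3, 5 of the 42 genes (11.9%) reached an adjusted p under 0.05 in edgeR, against 15.2% of the genes then tested. That fit called 2283 genes in all, whereas dropping any other single library called at most 13. Because the control left out was the one most like the Ni libraries, these calls are not independent support for a difference. Irs1 was higher with Ni, with a log2 fold change of 0.67 (adjusted p = 0.00225). Pik3r5 (-0.65, adjusted p = 0.000917), Sesn1 (-0.53, adjusted p = 0.00294), Pik3cd (-0.47, adjusted p = 0.00833) and Pik3cg (-0.40, adjusted p = 0.00728) were lower. Groups did not overlap for 23 genes (54.8%), against 43.1% of all genes in that comparison of 2 controls with 3 Ni libraries. A further pair of calls, Pik3r5 and Irs1, appeared with all 6 libraries when no filter on low counts was applied, a setting in which 3.97% of 25876 genes were called.

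**Figure D2:**
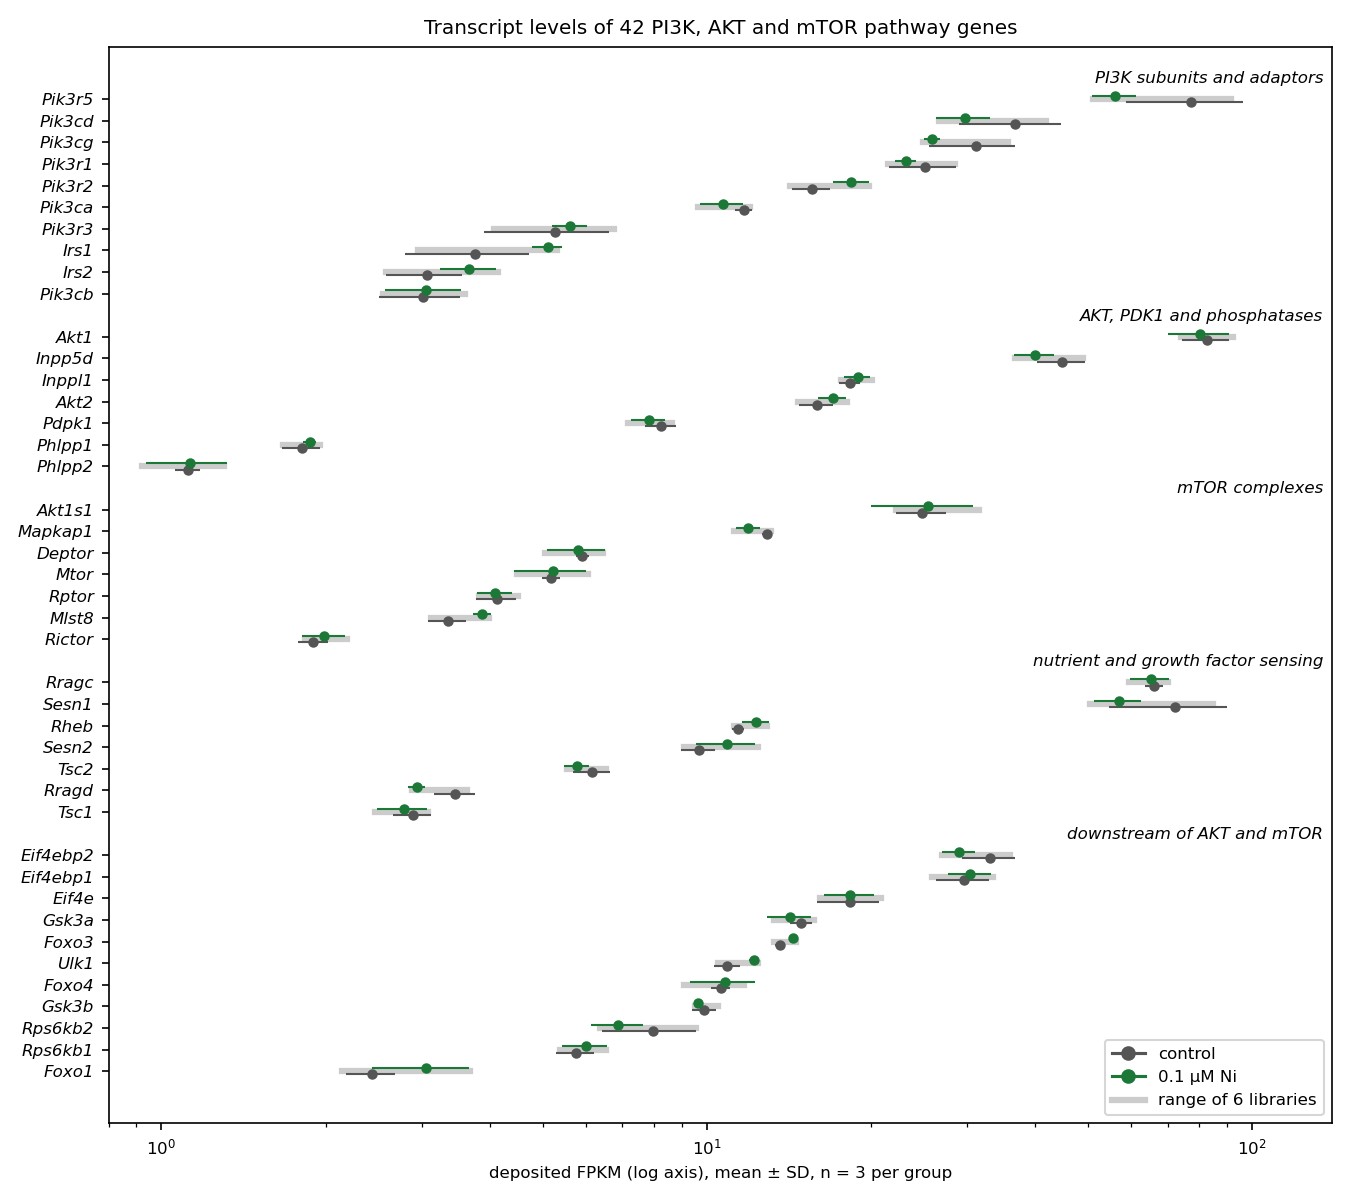
Transcript level per gene as deposited FPKM (log axis), with mean ± SD of 3 control (grey) and 3 Ni (green) libraries and a pale bar over the range of all 6, by class. Mean levels span 1.13 FPKM for Phlpp2 to 81.5 FPKM for Akt1, and the groups' error bars overlap for most genes.

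The PI3K class held the widest differences in the pathway, in both directions, with 5 genes higher, 5 lower and a median log2 fold change of -0.05. The catalytic subunits δ and γ and the γ adaptor p101 lay lower with Ni, and the insulin receptor substrates lay higher, but control replicate 3 sat near the Ni libraries for these genes. Pik3r5 encodes p101, the regulatory subunit that couples PI3Kγ to G protein βγ subunits, and had the highest mean level of the class at 66.6 FPKM. The gene lies at chromosome 11, 68432121 to 68497849 (GRCm38, plus strand). Its level was 472, 510 and 314 CPM in control replicates 1 to 3 and 284, 344 and 310 CPM in the Ni libraries. The third control fell among the Ni values, so the groups overlapped. The log2 fold change was -0.47 (SE 0.17, adjusted p = 0.334 by edgeR).

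Pik3cg and Pik3cd encode the γ and δ catalytic subunits, and were named after their values had been seen. Pik3cg stood at 303, 279 and 212 CPM in the controls and at 219, 213 and 226 CPM with Ni (log2 fold change -0.27, SE 0.13). Pik3cd stood at 258, 263 and 175 CPM in the controls and at 182, 211 and 168 CPM with Ni (log2 fold change -0.31, SE 0.16). For both, control replicates 1 and 2 were above every Ni library and control replicate 3 was not. The ubiquitous catalytic subunits Pik3ca and Pik3cb differed less, at -0.12 (95% interval -0.34 to 0.09) and 0.01 (-0.34 to 0.37) on the log2 scale.

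Per length, the δ and γ subunits together made up most of the class I catalytic FPKM. Their share was 83.8%, 83.7% and 78.1% in the controls and 79.0%, 82.7% and 78.5% with Ni, so the groups overlapped, and with 3 libraries against 3 an exact permutation test could not give a p below 0.1. Pik3cd alone took 44.3% ± 2.91 (SD, n = 3) in controls and 42.8% ± 4.14 with Ni, and Pik3cg 37.6% ± 1.25 and 37.3% ± 1.96. Pik3ca took 14.3% ± 1.97 and 15.5% ± 1.58, and Pik3cb 3.80% ± 1.34 and 4.41% ± 0.777. Subunits known mainly from leukocytes thus outnumbered the ubiquitous ones in transcripts per length in all 6 libraries. The macrophage markers given above were abundant in all of these libraries too, and the share of the δ and γ transcripts that came from macrophages was not tested.

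**Figure D3:**
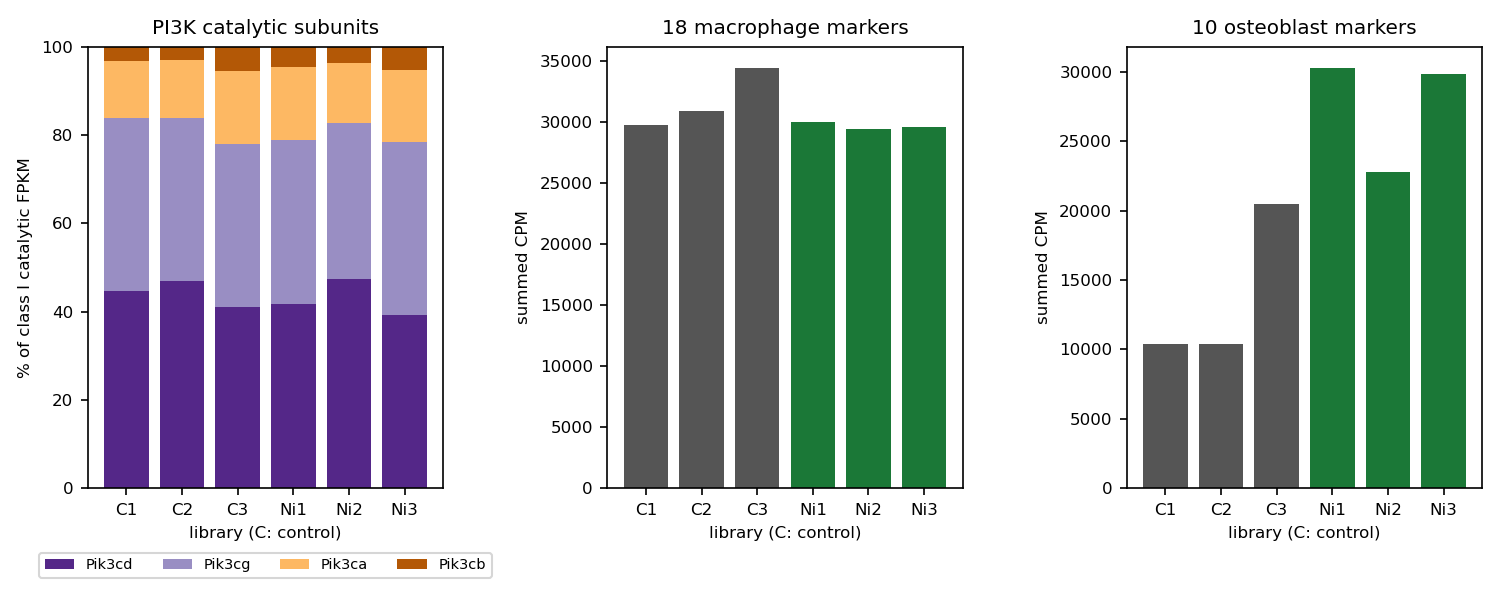
Left, the share of each class I catalytic subunit in the summed FPKM of the 4 (percent, stacked bars) in each library. Middle and right, the summed CPM of 18 macrophage and 10 osteoblast markers per library: the macrophage sum is highest in control replicate 3 (34400 CPM), and the osteoblast sum of that library (20500 CPM) lies between the other controls (10400 CPM each) and the Ni libraries.

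Inpp5d encodes SHIP1, a 5-phosphatase of PIP3 restricted largely to blood cells. Its level was 349, 375 and 306 CPM in controls and 301, 334 and 280 CPM with Ni (log2 fold change -0.17, SE 0.12), with overlapping groups. Together with Pik3cd, Pik3cg and Pik3r5 it formed a set of 4 leukocyte-enriched genes, grouped after the values had been seen, whose median log2 fold change was -0.29 with all libraries and -0.44 without control replicate 3. The other 38 genes had a median of 0.01. Among the 18 macrophage markers 14 had a lower fitted level with Ni, 5 of them at an unadjusted p under 0.05 (5.83% of all tested genes were lower at that p), and their median was -0.20. Control replicate 3 had the highest summed macrophage level of all libraries and the lowest control levels of these 4 genes. The mean levels of the 18 markers ran from 19.7 to 8880 FPKM, so the most abundant weigh most in that sum. The osteoclast marker sum was 1160, 1340 and 637 CPM in controls and 708, 704 and 661 CPM with Ni, and the lymphocyte marker sum was 35.6, 42.4 and 13.8 CPM in controls and 18.9, 19 and 15.2 CPM with Ni. In both sums control replicates 1 and 2 lay above all Ni libraries and control replicate 3 below all of them. Only 4 of the 8 osteoclast markers were tested, 3 with a higher and 1 with a lower fitted level with Ni (median log2 fold change 0.15). Of the 8 lymphocyte markers only 1 was tested, so neither sum speaks for its whole list. The part of these cell types in the levels of the 4 genes was not tested.

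The start sites of these 4 genes, grouped after the values had been seen, are shown as a description. With all 6 libraries and the filter on low counts, 0 of the 4 passed adjustment by edgeR. Each window is 200 bases of RefSeq promoter sequence (GRCm38.p6), 180 before and 20 from the first listed start, read on the gene's strand. Capitals mark the letters GAGGAAGT, a core recognised by the myeloid factor PU.1, or their reverse complement.
Pik3cg, chr12:32208640-32208839, minus strand: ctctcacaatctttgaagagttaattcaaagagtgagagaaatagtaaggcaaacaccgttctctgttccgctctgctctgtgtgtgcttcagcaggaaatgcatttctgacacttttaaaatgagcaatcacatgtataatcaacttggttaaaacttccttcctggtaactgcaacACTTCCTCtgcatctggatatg
Inpp5d, chr1:87620132-87620331, plus strand: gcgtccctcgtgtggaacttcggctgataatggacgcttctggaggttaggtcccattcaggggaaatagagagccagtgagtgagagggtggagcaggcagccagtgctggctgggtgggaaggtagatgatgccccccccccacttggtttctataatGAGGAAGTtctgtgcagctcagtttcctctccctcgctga
Pik3cd, chr4:149698689-149698888, minus strand: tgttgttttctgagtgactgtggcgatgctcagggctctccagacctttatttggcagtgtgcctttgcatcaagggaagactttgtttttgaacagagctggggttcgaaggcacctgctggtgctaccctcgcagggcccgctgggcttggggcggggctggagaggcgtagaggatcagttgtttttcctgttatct
Pik3r5, chr11:68431945-68432144, plus strand: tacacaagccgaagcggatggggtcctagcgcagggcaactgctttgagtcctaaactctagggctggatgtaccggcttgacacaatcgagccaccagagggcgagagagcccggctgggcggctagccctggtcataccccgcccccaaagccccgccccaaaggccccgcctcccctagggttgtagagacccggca

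The letters lay 20 to 13 bases before the start of Inpp5d and across the start of Pik3cg. Searched on both strands, they occurred in 3 of the 53 promoters that RefSeq lists for 38 of the 42 genes. The share over all 32851 promoters was 3.2%. Of the 3, a pair are overlapping promoters of Pik3cg that hold the same letters. The promoters searched were longer than the windows printed, such as chr12:32208610-32208909 for Pik3cg. A match of letters is a description of the window and not a measured binding site.

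Irs1 encodes the docking protein that links the insulin and IGF-1 receptors to PI3K, at chromosome 1, 82233101 to 82291416 (GRCm38, minus strand). Its level was 32.2, 27.2 and 44.5 CPM in controls and 48.4, 43.7 and 48.8 CPM with Ni. Control replicate 3 lay above the lowest Ni library, and the other controls lay below all of them. The log2 fold change was 0.44 (SE 0.16, adjusted p = 0.334 by edgeR). In the annotation 30.9% of its exon bases lie opposite Gm9747, which had 0 counts in every library. Irs2, the partner substrate, had a log2 fold change of 0.26 (95% interval -0.07 to 0.59).

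Pik3r2 encodes p85β, a regulatory subunit of the α, β and δ enzymes, at chromosome 8, 70768176 to 70776713 (GRCm38, minus strand). Its level was 59.7, 67.9 and 69.7 CPM in controls and 76.8, 83.4 and 71.2 CPM with Ni. All Ni libraries were above all controls, by a small margin in Ni replicate 3. The log2 fold change was 0.23 (SE 0.10, adjusted p = 0.371 by edgeR). The sister subunits Pik3r1 (p85α) and Pik3r3 (p55γ) had log2 fold changes of -0.12 (95% interval -0.38 to 0.15) and 0.09 (-0.29 to 0.47); 24.3% of the exon bases of Pik3r3 are shared with Gm49337, listed at 0 counts. In the same libraries 9 of 10 stromal and 10 of 10 osteoblast markers, with Col1a1 on both lists, had a higher fitted level with Ni. By edgeR at an unadjusted p under 0.05, 6 and 10 of them were higher, against 7.59% of all tested genes. After adjustment 0 passed. The part of cell makeup in the levels of Irs1 and Pik3r2 was not tested.

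**Figure D4:**
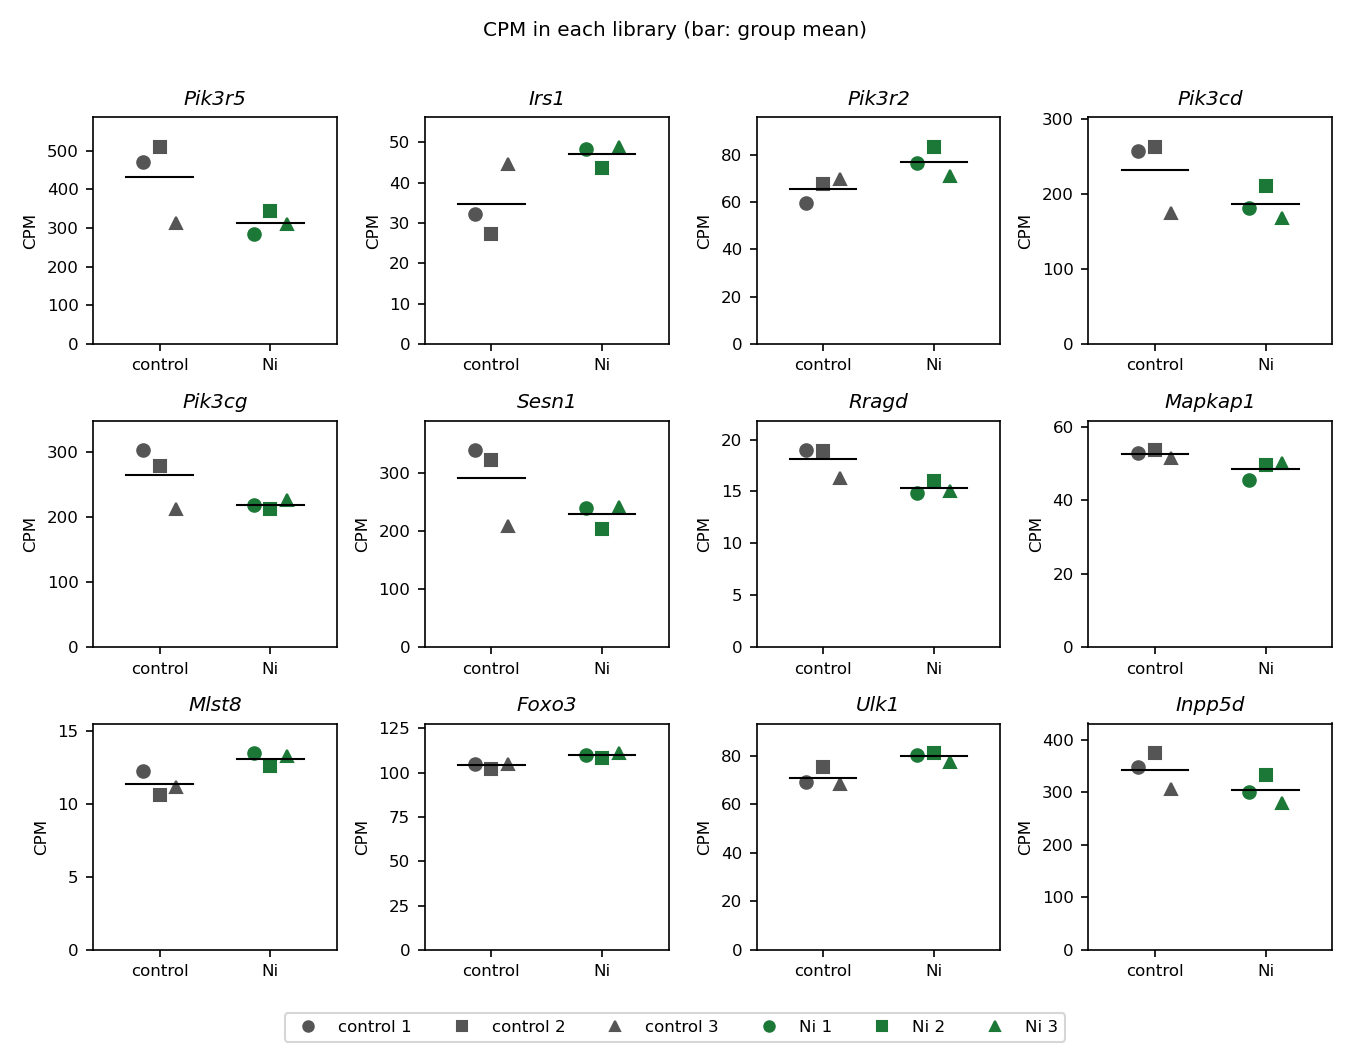
CPM of 12 genes in each library (points; shape gives the replicate number, the bar the group mean; axes start at 0). For Pik3r5, Pik3cd, Pik3cg and Sesn1 control replicate 3 lies with the Ni libraries, whereas for Pik3r2, Mlst8, Foxo3, Ulk1, Rragd and Mapkap1 the groups do not overlap.

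AKT itself, the kinase at the centre of the pathway, was abundant and differed little between the groups. Akt1 had the highest level of all 42 genes per length (FPKM). Its counts stood at 314, 379 and 330 CPM in controls and at 307, 382 and 305 CPM with Ni. The replicates 2 were the highest in each group, and the groups overlapped fully. Its log2 fold change was -0.04, with a 95% interval of -0.32 to 0.24. Akt2, the form best known for insulin action, had a log2 fold change of 0.09 (95% interval -0.12 to 0.31).

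Per length, Akt1 stood at 82.6 ± 8.15 FPKM (SD, n = 3) in controls and 80.3 ± 10.3 FPKM with Ni, and Akt2 at 15.9 ± 1.14 and 17.0 ± 1.03 FPKM. Of the 7 genes in this class none met an unadjusted p under 0.05, none had groups without overlap, and all 7 intervals lay within 1.5-fold. Pdpk1, which encodes PDK1, had a log2 fold change of -0.08. The AKT phosphatases Phlpp1 and Phlpp2 were the least abundant of the class, and stood at 0.04 and 0.01, and Inppl1, encoding the widely expressed SHIP2, stood at 0.04.

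The mTOR complexes differed by between -0.12 and 0.21 on the log2 scale, with 4 genes higher, 3 lower and a median of 0.01, and all 7 intervals lay within 1.5-fold. Mtor, the kinase shared by both complexes, stood at 53.1, 50.6 and 54.6 CPM in controls and at 45.5, 61.8 and 51.9 CPM with Ni. The Ni values spanned those of the controls, and the log2 fold change was 0.01 (95% interval -0.26 to 0.28). Akt1s1 encodes PRAS40, an inhibitor of complex 1 that AKT phosphorylates, and had the highest level per length of the class. It stood at 68.8, 85.0 and 76.5 CPM in controls and at 68.8, 98.2 and 68.8 CPM with Ni (log2 fold change 0.03, SE 0.15).

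In this class 2 genes had groups without overlap. Mlst8, a subunit of both complexes, stood at 12.3, 10.6 and 11.2 CPM in controls and at 13.5, 12.6 and 13.3 CPM with Ni (log2 fold change 0.21, SE 0.14, adjusted p = 0.537 by edgeR). Mapkap1 encodes SIN1, a subunit of complex 2, and stood at 52.8, 53.7 and 51.6 CPM in controls and at 45.5, 49.6 and 50.1 CPM with Ni (log2 fold change -0.12, SE 0.09, adjusted p = 0.591). In both cases the gap between the groups was narrower than the range within the wider group. Rptor and Rictor define complexes 1 and 2, and their FPKM ratio was 2.18 ± 0.281 (SD, n = 3) in controls and 2.07 ± 0.304 with Ni. The inhibitory subunit Deptor had a log2 fold change of -0.03. For Mlst8, 22.5% of the exon bases in the GENCODE M21 annotation lie opposite Bricd5, which had 0 counts in every library.

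Of the nutrient and growth factor sensors, 5 of 7 lay lower with Ni and the median log2 fold change was -0.06. Sesn1, a sestrin that restrains mTOR complex 1, had the largest difference and was named after its values had been seen. It stood at 339, 322 and 209 CPM in controls and at 240, 203 and 241 CPM with Ni. As for Pik3r5, the third control sat among the Ni libraries, and the log2 fold change was -0.35 (SE 0.17, adjusted p = 0.413 by edgeR). Sesn2, another sestrin, had the opposite sign at 0.18 (95% interval -0.09 to 0.44).

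The Rag GTPases, which bring mTOR complex 1 to the lysosome, included the most abundant sensor per length. Rragc stood at 229, 224 and 214 CPM in controls and at 235, 201 and 221 CPM with Ni, with full overlap and a log2 fold change of -0.02 (SE 0.10). Rragd stood at 19, 18.9 and 16.3 CPM in controls and at 14.9, 16 and 15 CPM with Ni. Its Ni libraries all lay below the controls, by a narrow gap to control replicate 3 (log2 fold change -0.24, SE 0.12, adjusted p = 0.422 by edgeR). Tsc1 and Tsc2, whose complex switches RHEB off, stood at -0.06 and -0.10 on the log2 scale, and Rheb at 0.11. The intervals of all 3 lay within 1.5-fold.

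Downstream of AKT and mTOR the median log2 fold change of the 11 genes was 0.02, with 6 higher and 5 lower. Foxo3 encodes a transcription factor that AKT excludes from the nucleus, and stood at 105, 102 and 105 CPM in controls and at 110, 108 and 111 CPM with Ni. Ulk1 encodes the autophagy-initiating kinase that mTOR complex 1 inhibits, and stood at 69.2, 75.6 and 68.5 CPM in controls and at 80.5, 81.2 and 77.6 CPM with Ni. For both, every Ni library was above every control, but the differences were small, with log2 fold changes of 0.08 (SE 0.08, adjusted p = 0.727 by edgeR) and 0.17 (SE 0.09, adjusted p = 0.435). Foxo1, at a lower level, had a log2 fold change of 0.33 (95% interval -0.02 to 0.68), and Foxo4 0.02.

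Among the translation regulators, Eif4ebp2 encodes a repressor that binds the cap-binding protein eIF4E until mTOR complex 1 phosphorylates it. It stood at 200, 209 and 169 CPM in controls and at 169, 181 and 157 CPM with Ni, with overlapping groups and a log2 fold change of -0.19 (SE 0.11). Its relative Eif4ebp1 stood at 0.04. The FPKM ratio of Eif4ebp1 to Eif4ebp2 was 0.907 ± 0.186 (SD, n = 3) in controls and 1.05 ± 0.069 with Ni, and the ratio of both repressors to Eif4e was 3.48 ± 0.595 and 3.30 ± 0.610. Eif4e itself differed by 0.00 (95% interval -0.27 to 0.26). The S6 kinases Rps6kb1 and Rps6kb2 had log2 fold changes of 0.06 and -0.22, and the kinases Gsk3a and Gsk3b of -0.07 and -0.04. In the GENCODE M21 annotation, exon bases of Gsk3a (28.3%) and Rps6kb2 (23.7%) lie opposite other genes. Whether reads were counted by strand is not given in the sources used here.

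Integrin-linked kinase, which the study places upstream of AKT, was counted at a low level. Ilk had 14, 11 and 18 counts in controls and 44, 48 and 28 counts with Ni, and all Ni libraries lay above the controls. The log2 fold change was 1.39 (SE 0.37, adjusted p = 0.268 by edgeR), and 1.61 without control replicate 3 (adjusted p = 0.0241).

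Further genes of the pathway also held no call after adjustment. Of 56 listed genes 52 were tested, with a median log2 fold change of -0.02; 5 were higher and 3 lower with Ni at an unadjusted p under 0.05, where 7.59% and 5.83% of all tested genes were, and 0 passed adjustment. Castor2, a relative of the arginine sensor CASTOR1, stood at 47.2, 48.7 and 37.4 CPM in controls and at 31.5, 37.5 and 29.1 CPM with Ni (log2 fold change -0.44, SE 0.14, adjusted p = 0.294). Grb10, an adaptor that restrains insulin receptor signalling, stood at 118, 102 and 160 CPM in controls and at 205, 157 and 199 CPM with Ni (0.56, SE 0.17, adjusted p = 0.296). In both, the third control lay among the Ni libraries.

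Seh1l, a subunit of the GATOR2 complex that relays amino acid signals, stood at 54.4, 47.7 and 56.2 CPM in controls and at 64.8, 64.1 and 64.6 CPM with Ni, without overlap (0.29, SE 0.10, adjusted p = 0.309). Inpp4b, a phosphatase of the PI3K product PI(3,4)P2, stood at 52.1, 50.8 and 32.5 CPM in controls and at 29.6, 30 and 35.7 CPM with Ni (-0.51, SE 0.18, adjusted p = 0.322). Without control replicate 3, 5 of these further genes were higher and 5 lower at an adjusted p under 0.05, where 15.2% of all genes were called. Among them were Grb10 (log2 fold change 0.77, adjusted p = 0.00118), Castor2 (-0.55, adjusted p = 0.0093), Inpp4b (-0.69, adjusted p = 0.0016) and Seh1l (0.34, adjusted p = 0.0382).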

How the data were processed

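The authors deposited raw read counts per gene, without normalization, and FPKM values of the same genes, which equal those counts divided by gene length and 1 factor per library. The submitters' processing notes name GRCm38; the aligner, counting tool and strand setting are not given in the sources used here. Groups were taken from the sample titles. Genes passing edgeR's filterByExpr (14624) were TMM-normalized and tested with the quasi-likelihood test of edgeR 4.0.16 (R 4.3.3; glmQLFit, robust; prior count 0.125) with Benjamini-Hochberg adjustment over all of them. CPM are TMM-scaled. DESeq2 1.42.0 and limma 3.58.1 on log2(FPKM + 1) or log2(FPKM + 0.1) were alternatives. The fit was tested on simulated data. It recovered few changes of about the size of the largest among the 42 genes. The share of its calls that were false exceeded the adjusted p threshold. Members and gene lists were chosen with earlier results of these data known. Per-library values are given for members with an unadjusted p under 0.05, without overlap between groups, or with the highest FPKM of their class, for up to 4 genes of each further list with the smallest p, and for Ilk; other members named with per-library values were chosen after these were seen. Shares of exon bases that overlap other genes were taken on GENCODE M21 exons. Of the 42 members, 40 have the GENCODE M21 coordinates. Mlst8 (3366 bases deposited, 4435 in M21) and Rps6kb2 (2445 and 5167) do not, so their shares are not those of the counted genes.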

Additional observations from a re-analysis of the deposited data

How the results depend on the processing

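The median log2 fold change of the 42 genes stayed between -0.03 and 0.01 in all 17 alternatives. At an adjusted p under 0.05, the count of 0 became 2 with every gene kept whatever its counts, and 0 to 5 on dropping single libraries, the 5 without control replicate 3. At an unadjusted p under 0.05 the count of 3 became 7 without the filter, 1 by limma on log2(FPKM + 1), 1 in the same fit without a filter, and 0 to 14 on dropping single libraries: 14 without control replicate 3, 1 without Ni replicate 3, 3 without Ni replicate 2 and 0 without each of the other three. Genes without overlap numbered 6 with all libraries and 7 to 23 on dropping single libraries, 23 without control replicate 3 and 14 without Ni replicate 2, where fewer libraries have to be separated. Same-numbered libraries had correlations of deviations of 0.01, 0.26 and 0.14, and with 3 libraries a group these cannot tell whether replicate numbers pair the samples. With the replicate block 4 genes had an unadjusted p under 0.05 and 0 an adjusted one (315 of all genes), and with the replicate block and the gene-length trend removed 6. Of the genes named outside the 42 the block called Grb10, Bnip3 and Sod2 at an adjusted p under 0.05. Of the 42 genes 25 kept their sign throughout, and the other 17, all within 0.09 of 0, changed it somewhere. On dropping single libraries the log2 fold change ran from -0.15 to 0.04 (Akt1), -0.15 to 0.12 (Akt1s1), -0.11 to 0.06 (Deptor), -0.08 to 0.10 (Eif4e), -0.05 to 0.11 (Eif4ebp1), -0.04 to 0.13 (Foxo4), -0.01 to 0.08 (Inppl1), -0.11 to 0.11 (Mtor), -0.01 to 0.10 (Phlpp1), -0.09 to 0.15 (Phlpp2), -0.10 to 0.17 (Pik3cb), -0.07 to 0.31 (Pik3r3), -0.01 to 0.12 (Rictor), -0.01 to 0.13 (Rps6kb1), -0.07 to 0.06 (Rptor), -0.08 to 0.04 (Rragc) and -0.12 to 0.03 (Tsc1). Eif4e was 0.00 with upper quartile scaling, at least 10 counts in every library or limma, and 0.01 without a filter. Mtor was -0.00 by limma on log2(FPKM + 0.1) and with the replicate block, -0.02 with the gene-length trend removed and -0.03 with both. Phlpp2 was -0.01 and -0.02, and Pik3cb -0.00 and -0.00, with the length trend removed without and with the block. The cause of these changes was not tested. With 3 libraries a group, each gene's 95% interval reached at least 0.24 from 0 on one side, and 0 calls do not show that the genes did not differ.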

Other observations

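Transcripts of genes that FOXO factors are known to switch on showed no common direction. Of 18 listed genes 15 were tested, with a median log2 fold change of -0.11; at an unadjusted p under 0.05, 3 were higher with Ni and 1 was lower, against 7.59% and 5.83% of all tested genes, and 0 passed adjustment by edgeR. Without control replicate 3 edgeR called 3 higher and 3 lower at an adjusted p under 0.05, where 15.2% of all genes were called. Bnip3, a mitophagy receptor, stood at 91.0, 75.7 and 136 CPM in controls and at 179, 136 and 175 CPM with Ni (log2 fold change 0.70, SE 0.21, and 0.98 without control replicate 3, adjusted p = 0.000414). Fbxo32, which encodes the ubiquitin ligase atrogin-1, differed by 0.53 (SE 0.20; 0.83 without control replicate 3, adjusted p = 0.000954), and Pdk4, a brake on pyruvate dehydrogenase, by 0.37 (SE 0.14; 0.52 without control replicate 3, adjusted p = 0.00844). Sod2, the mitochondrial superoxide dismutase, stood at 150, 149 and 131 CPM in controls and at 92.8, 111 and 98.3 CPM with Ni, without overlap (-0.51, SE 0.10, adjusted p = 0.208, and -0.57 without control replicate 3, adjusted p = 0.00202). With all libraries DESeq2 called Bnip3 and Sod2 at an adjusted p under 0.05.

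Sterol and lipid synthesis genes, a transcriptional output that mTOR complex 1 is known to favour, mostly had lower fitted levels with Ni. Of 18 genes tested, 14 were lower, the median log2 fold change was -0.12, and at an unadjusted p under 0.05 the test of edgeR found 4 lower and 0 higher, against 5.83% and 7.59% of all tested genes, with 0 after adjustment. Idi1, an isomerase of the isoprenoid route, differed by -0.35 (SE 0.12) and Sqle, squalene epoxidase, by -0.28 (SE 0.11), both without overlap between the groups. Insig1, the sterol sensor partner of SCAP, and Mvd, a decarboxylase of the mevalonate route, both differed by -0.32. Without control replicate 3, 2 of the 18 genes were higher and 0 lower at an adjusted p under 0.05.

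Other motifs were looked for on both strands of the same RefSeq promoters of the 42 pathway genes. Letters GTAAACA, read by FOXO factors, occurred in 5 of 53 promoters (Mapkap1, Sesn1, Pik3cg and Akt1) against 3.65% of all promoters. The E-box CACGTG, read by TFEB and MYC among others, occurred in 5 (Irs1, Irs2, Eif4e, Rragc and Rheb) against 7.15%, and the AP-1 letters TGACTCA in 1 (Pik3ca) against 5.2%. The CRE letters TGACGTCA and the GLI letters GACCACCCA occurred in 0 of the 53, against 1.79% and 0.253%. These are counts of letters, and several promoters of a gene overlap.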
